A study of Homo sapiens with 10 samples.

Results

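Interferon-stimulated effector genes are the genes whose products carry out the antiviral state after interferon signalling. The 49 followed here were chosen by name, by a rule that uses no measured value, though with earlier results of these data known. They are the OAS, IFIT, MX and IFITM families, the IFI6/IFI27 and IFI44 families with IFI35, the ISG15 conjugation genes, enzymes of nucleotide and RNA metabolism, ADP-ribosyltransferases with their partner DTX3L, SAMD9 and membrane-bound effectors, nuclear body and TRIM proteins, and 4 other induced genes. Of the 49, 48 were among the 17642 genes of the siRNA experiment and 32 were among the 13029 genes of the ZMAT3 experiment.

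All 10 RNA-seq libraries came from HCT116, a human colorectal cancer cell line, and no drug treatment of the sequenced cultures is described. In the siRNA experiment 2 cultures received a control siRNA (siCTRL) and 2 received a SMARTpool of 4 siRNAs against p53 (sip53). Each transfection lasted 72 hr, and the aim was to find RNAs that depend on p53. The paper's methods name different suppliers for the control siRNA and the pool. Loss of p53 thus cannot be told apart from other differences between these siRNAs. In the ZMAT3 experiment, which asked which RNAs depend on this RNA-binding p53 target, 3 libraries came from a ZMAT3-WT clone and 3 from a ZMAT3-KO clone. The ZMAT3-KO cells were made with CRISPR/Cas9 and sgRNAs on either side of the p53 response element in an intron of ZMAT3. Each genotype is thus represented by 1 clone, and its replicates measure the spread between cultures and not between clones. Sample labels of the ZMAT3 experiment also carry the abbreviations EV and unt, whose meaning is not given in the sources used here, and both genotypes share them.

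Type I and type III interferons bind cell surface receptors whose JAK kinases phosphorylate STAT proteins. With IRF9 these form a factor that binds the interferon-stimulated response element in the promoters of its target genes. Many of the targets encode RNA sensors, RNA-degrading systems and membrane proteins that restrict viruses, and epithelial cells such as those of the colon can express them at a basal level without infection.

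Promoter sequence was one property that the choice of genes did not use. In the RefSeq promoter table (GRCh38.p14, 250 bases before to 50 after each gene's start), 40 members were matched. OAS2, OASL, IFIT2, MX2, IFITM2, UBA7, USP18, PARP10 and TRIM22 had no entry and were not searched. The first entry of each member was used, against every entry for the share over all promoters. The core of the response element, searched as GAAANNGAAA on both strands, was present in 28 of these 40 promoters (70.0%) and in 3.57% of all 35116 promoters. The STAT dimer element, searched as TTCNNNGAA, was present in 9 of the 40 (22.5%) and in 7.66% of all promoters. In 4 member promoters a copy of one overlapped a copy of the other. The p53 half-site was present in 2 (5.0%), those of ISG15 and RTP4, against 6.63% of all. A match of letters is a description of the window and was not tested as a binding site. The cores below are shown because they belong to members with large responses to sip53, a small one (IFIT5) or none that passed the test (ISG20 and DDX60L), which are given further on. Capitals mark the core, and each sequence is written 5′ to 3′ on the strand of its gene.
OAS3 (chr12:112938452-112938481, plus strand): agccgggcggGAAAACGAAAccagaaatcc
IFIT1 (chr10:89392510-89392539, plus strand, core read on the opposite strand): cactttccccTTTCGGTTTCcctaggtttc
IFIT5 (chr10:89414554-89414583, plus strand, core read on the opposite strand): atttcttaagTTTCAGTTTCtgagcgctcg
IFI6 (chr1:27672266-27672295, minus strand): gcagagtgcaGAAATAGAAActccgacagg
IFI27 (chr14:94110631-94110660, plus strand): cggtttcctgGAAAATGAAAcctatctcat
IFI44L (chr1:78620365-78620394, plus strand): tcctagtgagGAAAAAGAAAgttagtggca
ISG15 (chr1:1013380-1013409, plus strand): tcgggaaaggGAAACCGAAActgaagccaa
SAMD9 (chr7:93118096-93118125, minus strand): tctgagaaatGAAACTGAAAccaaacctat
ISG20 (chr15:88638937-88638966, plus strand): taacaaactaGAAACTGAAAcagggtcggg
DDX60 (chr4:168318786-168318815, minus strand): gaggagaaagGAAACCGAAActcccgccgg
DDX60L (chr4:168480523-168480552, minus strand): gtggagaaaaGAAACCGAAActaactccct
The capitals of ISG15, DDX60 and DDX60L are the same letters, and so are those of SAMD9 and ISG20. No core was found in the windows of OAS1, IFI35, UBE2L6, HERC6, RSAD2, CMPK2, HELZ2, PARP9, SAMD9L, XAF1, SP100 and SP110.

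Levels are given in FPKM (fragments per kilobase of transcript, scaled to the mapped fragments of the library) in the siRNA experiment. In the ZMAT3 experiment the targeted gene was checked first. ZMAT3 was at 5.00, 5.20 and 5.26 log2 CPM (the log2 of counts after scaling by library size) in the ZMAT3-WT libraries and at 2.25, 2.34 and 2.2 in the ZMAT3-KO libraries, so it was lowered and not absent. The depth of the libraries is unknown, since neither table holds counts. Of 8 colorectal epithelial markers, 7 were tested in each experiment. Among them EPCAM was higher with sip53 (log2 fold change 0.60, limma, adjusted p = 0.247). The others tested with sip53 did not pass, with KRT8, KRT18 and KRT19 at -0.05, 0.07 and -0.15. In ZMAT3-KO cells KRT8, KRT18 and KRT19 were lower (-0.94, -0.82 and -1.75). EPCAM, CDH1, CLDN4 and CDX2 did not pass there, at 0.01, 0.05, 0.03 and -0.09. Of 6 immune cell markers 4 were listed in the siRNA table, with sums of 1.04 to 2.94 FPKM per library, most of it LYZ, and none was listed in the ZMAT3 table. In the siRNA table the defining markers PTPRC and CD3E were not listed and IL3RA was at 0. In bulk RNA, fewer cells that express a gene and less RNA per cell cannot be told apart.

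With sip53 the members were lower almost throughout. Of the 48 listed, 45 had both sip53 values below both siCTRL values, against 24.7% of all listed genes. The exceptions were IFITM2, ISG20 and DDX60L, whose groups overlapped. The summed level of the members was 4590 and 4326 FPKM in the siCTRL libraries and 1507 and 1902 FPKM in the sip53 libraries, which is 0.581% and 0.611% against 0.202% and 0.229% of the table's total. The median member was at 18.4 and 20.7 FPKM with siCTRL and at 5.32 and 5.06 FPKM with sip53.

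Each gene with a mean of at least 0.5 FPKM was tested with limma on log2(FPKM + 0.1), a scale that understates the change of low genes. A gene is said to have risen or fallen where the unadjusted two-sided p was under 0.05. For most genes so named, the p-value adjusted over all 14274 genes tested is given too. Of the 43 members tested, 39 fell and 0 rose, while 9.28% of all genes tested fell and 5.86% rose. The members MX1, IFITM2, ISG20 and DDX60L did not pass. Because IFI44L, TRIM22, RSAD2, EPSTI1 and CMPK2 reached the level filter through their siCTRL values alone, the count was repeated among the 38 members with at least 0.5 FPKM in both groups, of which 34 fell. The median log2 fold change was -1.87 over these 38 members and -2.09 over all 43 tested, against -0.04 over all genes tested. At an adjusted p under 0.05, 17 members were lower, among 34 such genes in the whole table (0.238%). The 17 include IFI44L, which reached the filter through siCTRL alone. That adjusted count rests on the number of libraries and the filter. It was 0 without siCTRL replicate 1, 3 without siCTRL replicate 2, 12 without sip53 replicate 1, 11 without sip53 replicate 2 and 0 with no filter (44 at the unadjusted threshold), whereas the unadjusted count stayed between 38 and 39 without any single library. The replicates come from separate cultures, and the median difference between a pair of replicates over the members was 0.24 on the log2 scale for siCTRL and 0.27 for sip53.

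**Figure D1:**
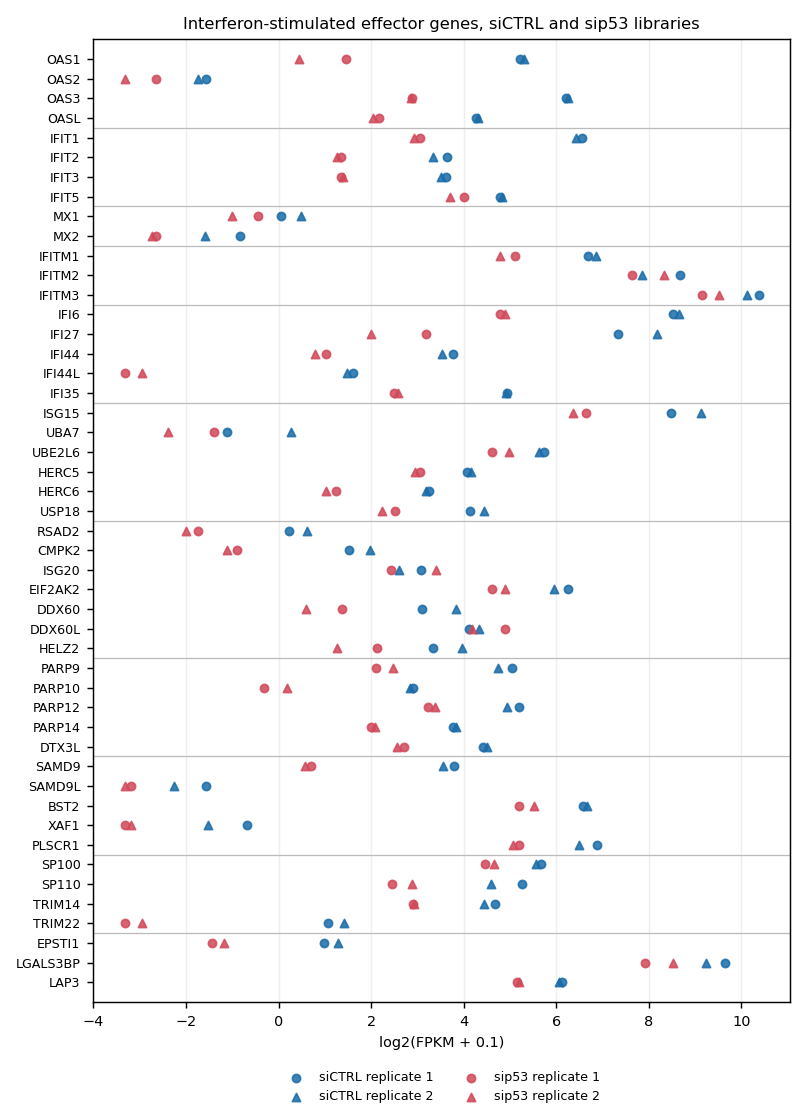
Level of the 48 listed members in each of the 4 siRNA libraries, on a log2(FPKM + 0.1) axis, grouped by role with grey lines between groups (blue, siCTRL; red, sip53; circles, replicate 1; triangles, replicate 2). Red points lie to the left of both blue points for 45 members and mix with them for IFITM2, ISG20 and DDX60L.

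The oligoadenylate synthetases on sensing double-stranded RNA make the messenger that activates RNase L, and all 3 family members that were tested fell. OAS1 was at 36.8 and 39.3 FPKM with siCTRL and at 2.63 and 1.25 FPKM with sip53. The fall in OAS1 was -4.31 on the log2 scale (SE 0.356, adjusted p = 0.0387). OAS3, the largest of the enzymes, was at 73.9 and 76.3 FPKM against 7.33 and 7.21 FPKM (log2 fold change -3.35, SE 0.168, adjusted p = 0.00869). The replicates of OAS3 almost coincided in both groups. OASL, a family member without synthetase activity that enhances RNA sensing, was at 19.3 and 19.6 FPKM against 4.43 and 4.02 FPKM (log2 fold change -2.18, SE 0.177, adjusted p = 0.0387). OAS2 lay under the filter, at 0.24 and 0.20 FPKM against 0.06 and 0 FPKM. OAS1, OAS3 and OAS2 are neighbours on chromosome 12 of hg38, on the plus strand (112905856 to 112933219, 112938051 to 112976460 and 112978395 to 113011723, GENCODE 44). Their levels differed widely in siCTRL cells all the same, with OAS2 near 0.

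The IFIT proteins bind viral RNA that lacks host cap methylation, or its 5′ triphosphate end, and block its translation. All 4 fell. IFIT1 was at 94.1 and 86.4 FPKM with siCTRL and at 8.18 and 7.45 FPKM with sip53 (log2 fold change -3.51, SE 0.176, adjusted p = 0.00869). IFIT2 was at 12.4 and 9.97 FPKM against 2.46 and 2.30 FPKM (log2 fold change -2.18, SE 0.210, adjusted p = 0.0425). IFIT3, which stabilises IFIT1 on RNA, was at 12.1 and 11.4 FPKM against 2.44 and 2.53 FPKM (log2 fold change -2.20, SE 0.186, adjusted p = 0.0393). IFIT5, which binds RNA as a monomer, fell least, from 27.3 and 28.4 FPKM to 15.9 and 13.0 FPKM (log2 fold change -0.95, SE 0.190, adjusted p = 0.143). The 4 genes lie in 1 cluster on chromosome 10, from IFIT2 (start 89283694) to IFIT5 (end 89421605), all on the plus strand. The 95% confidence interval of the log2 fold change was -3.96 to -3.07 for IFIT1 and -1.43 to -0.47 for IFIT5, although the difference between the 2 genes was not itself tested. Part of the exonic sequence of IFIT2 (13.6%) overlaps other genes.

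The dynamin-like GTPases MX1 and MX2, which trap viral nucleocapsids, were barely expressed. MX1 was at 0.94 and 1.29 FPKM with siCTRL and at 0.63 and 0.40 FPKM with sip53, values that did not overlap but did not pass the test (limma, adjusted p = 0.347). MX2 was at 0.46 and 0.23 FPKM against 0.06 and 0.05 FPKM and was not tested.

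The IFITM proteins sit in membranes and block the fusion of enveloped viruses. IFITM1, found mostly at the cell surface, was at 103 and 116 FPKM with siCTRL and at 34.5 and 27.3 FPKM with sip53 (log2 fold change -1.83, SE 0.205, adjusted p = 0.0573). IFITM3, the endosomal member and the most abundant of all 48, was at 1326 and 1119 FPKM against 569 and 734 FPKM (log2 fold change -0.91, SE 0.239, adjusted p = 0.196). IFITM2 did not pass, at 409 and 232 FPKM against 198 and 322 FPKM (log2 fold change -0.29, 95% confidence interval -1.23 to 0.66). Its siCTRL and sip53 libraries overlapped, and the interval leaves room for a fall as large as that of IFITM3. The 3 transcripts share sequence, so their separate values are uncertain. Of the 50-base words in each, 55.1% in IFITM1, 20.8% in IFITM3 and 12.02% in IFITM2 also occur in other genes.

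IFI6 and IFI27 are small hydrophobic proteins of mitochondria and the endoplasmic reticulum. IFI6 was at 366 and 402 FPKM with siCTRL and at 27.4 and 29.7 FPKM with sip53 (log2 fold change -3.74, SE 0.180, adjusted p = 0.00869). IFI27 had the widest spread of the strongly lowered members, at 162 and 288 FPKM against 9.05 and 3.89 FPKM, and the lowest log2 fold change of all, -5.16 (SE 0.475, adjusted p = 0.0425). A share of the 50-base words of IFI6 (21.9%) also occurs in the overlapping LINC02574, and IFI27 shares none.

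IFI44 and IFI44L, related proteins encoded side by side on chromosome 1, fell together. IFI44 was at 13.6 and 11.5 FPKM with siCTRL and at 1.94 and 1.62 FPKM with sip53 (log2 fold change -2.75, SE 0.215, adjusted p = 0.0387). IFI44L was at 2.93 and 2.7 FPKM with siCTRL, and was listed at 0 and 0.03 FPKM with sip53 (adjusted p = 0.0425), which leaves no level to take a fold against. IFI35, a leucine zipper protein that modulates inflammatory signalling, was at 30.4 and 29.8 FPKM against 5.50 and 5.88 FPKM (log2 fold change -2.38, SE 0.171, adjusted p = 0.0291). IFI6, IFI27, IFI44 and IFI35 were among the 17 at an adjusted p under 0.05. IFI44L was too, but it reached the level filter through its siCTRL values alone.

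ISG15 is a ubiquitin-like protein that is joined to other proteins by the E1 enzyme UBA7, the E2 enzyme UBE2L6 and the E3 ligase HERC5, and is removed by USP18. ISG15 was at 356 and 559 FPKM with siCTRL and at 100.3 and 82.3 FPKM with sip53 (log2 fold change -2.29, SE 0.280, adjusted p = 0.0679). UBE2L6 fell from 53.3 and 49.3 FPKM to 24.4 and 31.6 FPKM, a log2 fold change of -0.88 (SE 0.205, adjusted p = 0.172). HERC5 was at 16.8 and 17.8 FPKM against 8.16 and 7.61 FPKM (log2 fold change -1.12, SE 0.174, adjusted p = 0.104). The 95% confidence intervals of UBE2L6 (-1.40 to -0.36) and HERC5 (-1.56 to -0.68) lay above that of the modifier ISG15 (-3.00 to -1.59), but the differences between these genes were not tested. HERC6, the neighbour of HERC5 on chromosome 4, was at 9.42 and 8.97 FPKM against 2.26 and 1.93 FPKM (log2 fold change -2.09, SE 0.203, adjusted p = 0.0425). USP18, which also restrains the type I interferon receptor, was at 17.6 and 21.5 FPKM against 5.60 and 4.63 FPKM (log2 fold change -1.91, SE 0.210, adjusted p = 0.0564). It is uncertain too, since 52.9% of its 50-base words occur in USP41 and other copies. UBA7, under the filter, was at 0.36 and 1.10 FPKM against 0.28 and 0.09 FPKM.

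Of the 7 effectors of nucleotide and RNA metabolism 5 fell, though RSAD2 and CMPK2 reached the level filter through their siCTRL values alone. RSAD2 (viperin), which makes a chain-terminating nucleotide, was at 1.07 and 1.42 FPKM with siCTRL and at 0.20 and 0.15 FPKM with sip53. Its neighbour CMPK2, a mitochondrial nucleotide kinase that can supply the substrate of viperin, was at 2.78 and 3.83 FPKM against 0.44 and 0.36 FPKM. Both moved in the same direction, with log2 fold changes of -2.28 for RSAD2 (limma, adjusted p = 0.137) and -2.75 for CMPK2 (adjusted p = 0.0674). That filter favours a fall, and the sizes depend on the pseudocount, being -0.93 and -1.61 with 1 FPKM. The 2 genes also overlap on opposite strands over 6.203% and 7.995% of their exonic bases. EIF2AK2 encodes PKR, the kinase that halts translation on double-stranded RNA. EIF2AK2 was at 75.7 and 61.4 FPKM against 24.2 and 29.5 FPKM (log2 fold change -1.35, SE 0.210, adjusted p = 0.105). HELZ2, a nuclear helicase, was at 9.98 and 15.5 FPKM against 4.24 and 2.31 FPKM (log2 fold change -1.96, SE 0.369, adjusted p = 0.125).

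DDX60 and DDX60L are paralogous helicases encoded next to each other on chromosome 4, and their values went apart. DDX60 was at 8.42 and 14.2 FPKM with siCTRL and at 2.48 and 1.41 FPKM with sip53 (log2 fold change -2.48, 95% confidence interval -3.44 to -1.53, adjusted p = 0.102). DDX60L was at 17.3 and 20.1 FPKM against 29.7 and 18.1 FPKM (log2 fold change 0.31, 95% confidence interval -0.40 to 1.02). The 2 intervals do not overlap, and the difference between the paralogues was not tested. Under 1% of the 50-base words of either gene occur in the other, and the windows of both hold the same core letters, as shown above. ISG20, an exonuclease that degrades RNA, was the other member of this group without a detected change, at 8.29 and 5.94 FPKM against 5.31 and 10.5 FPKM (log2 fold change 0.09, 95% confidence interval -0.85 to 1.02).

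The ADP-ribosyltransferases PARP9, PARP10, PARP12 and PARP14 and the ubiquitin ligase DTX3L all fell, with log2 fold changes from -2.94 (PARP10) to -1.76 (PARP14). PARP10 was at 7.43 and 7.09 FPKM with siCTRL and at 0.71 and 1.03 FPKM with sip53 (adjusted p = 0.0425). PARP9 and DTX3L form a complex that modifies histones and host proteins, and their genes start head to head on chromosome 3. PARP9 was at 32.7 and 26.8 FPKM against 4.23 and 5.49 FPKM (log2 fold change -2.59, SE 0.221, adjusted p = 0.0393). DTX3L was at 21.3 and 22.6 FPKM against 6.49 and 5.80 FPKM (log2 fold change -1.82, SE 0.178, adjusted p = 0.0425). PARP14, an ADP-ribosyltransferase that acts with STAT6 and is encoded in the same region, was at 13.6 and 14.2 FPKM against 3.92 and 4.14 FPKM (adjusted p = 0.0466). PARP12, which sits at the Golgi and in stress granules, was at 36.5 and 30.5 FPKM against 9.23 and 10.2 FPKM (log2 fold change -1.77, adjusted p = 0.0534). The sip53 and siCTRL libraries of all 5 genes did not overlap.

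SAMD9 restricts poxviruses by stopping translation. It was at 13.7 and 11.6 FPKM with siCTRL and at 1.53 and 1.39 FPKM with sip53 (log2 fold change -3.02, SE 0.209, adjusted p = 0.0291). Its paralogue and neighbour SAMD9L was at 0.24 and 0.11 FPKM against 0.01 and 0 FPKM, below the filter. BST2 (tetherin), which holds budding virions at the cell surface, was at 95.5 and 101 FPKM against 36.6 and 45.5 FPKM, and its log2 fold change was -1.26 (SE 0.195, adjusted p = 0.104). PLSCR1, a membrane scramblase that blocks viral entry, was at 117 and 89.8 FPKM against 36.5 and 33.2 FPKM (log2 fold change -1.56, SE 0.210, adjusted p = 0.0837). XAF1, which promotes apoptosis, was at 0.52 and 0.25 FPKM against 0 and 0.01 FPKM, and 38.3% of its exonic bases overlap an antisense gene whose reads cannot be told apart if strand was not used in counting.

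The nuclear body proteins SP100 and SP110 fell, with log2 fold changes of -1.06 and -2.26, as did TRIM14, an adaptor of RNA sensing, at -1.63. The adjusted p-values of SP100, SP110 and TRIM14 were 0.112, 0.0819 and 0.0578 (limma). SP100 was at 51.1 and 47.1 FPKM with siCTRL and at 21.9 and 25.1 FPKM after sip53, and TRIM14 at 25.3 and 21.4 FPKM against 7.34 and 7.54 FPKM. SP110 was at 38.3 and 24.0 FPKM against 5.33 and 7.33 FPKM, and it overlaps antisense genes over 19.4% of its exonic bases. TRIM22, a ubiquitin ligase known as a p53 target as well as an interferon target, was at 2.01 and 2.56 FPKM with siCTRL and was listed at 0 and 0.03 FPKM with sip53. No sip53 library thus gave a level of TRIM22 against which to set a fold. Among the remaining genes, EPSTI1 was at 1.88 and 2.34 FPKM against 0.27 and 0.34 FPKM. LGALS3BP, a secreted glycoprotein and the second most abundant member, was at 797 and 604 FPKM against 241 and 366 FPKM (log2 fold change -1.22, SE 0.289, adjusted p = 0.174). LAP3, a leucine aminopeptidase, was at 69.2 and 67.0 FPKM against 35.5 and 36.4 FPKM (log2 fold change -0.92, SE 0.169, adjusted p = 0.123), a small fall with little spread between replicates. RTP4 was not listed.

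The sizes ranged widely within the 39 members that fell. A fall of at least 4-fold on this scale was seen in 17 of the 34 that had at least 0.5 FPKM in both groups. At that level in both groups, 43 of all 13770 genes were lower by at least 4-fold, against 17 of the 38 members. The count was 22 of the 39 with those that reached the filter through siCTRL alone, whose sizes depend on the pseudocount. A fall of less than 2-fold was seen in 4 members, namely IFIT5, IFITM3, UBE2L6 and LAP3. The abundant IFITM3 and LGALS3BP were among the less strongly lowered. Without them and IFITM2 the summed level of the other members was 2059 and 2371 FPKM in the siCTRL libraries against 499.7 and 481 FPKM in the sip53 libraries.

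The genes of the pathway upstream of the members, from a list of 40, gave 30 that were tested in the siRNA experiment, of which 10 fell and 2 rose, against 9.28% and 5.86% of all genes tested. IFNL1 and TLR3 reached the level filter through their siCTRL values alone, and of the 28 with at least 0.5 FPKM in both groups 8 fell and 2 rose. Among ligands only IFNL1, a type III interferon, was tested. IFNL1 was at 1.37 and 0.67 FPKM with siCTRL and at 0.11 and 0.24 FPKM with sip53 (log2 fold change -1.99, SE 0.580, adjusted p = 0.220). IFNL2, IFNL3 and IFNE lay under the filter, and IFNB1 and IFNK were not listed. Of the 9 receptor chains and kinases 0 fell, and IFNAR2, a chain of the type I receptor, rose with a log2 fold change of 0.46 (limma, adjusted p = 0.325).

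Of the 7 signal transducers 4 fell. IRF9, a DNA-binding partner of STAT2, was at 48.3 and 49.95 FPKM with siCTRL and at 13.7 and 13.3 FPKM with sip53, and its log2 fold change was -1.86 (adjusted p = 0.0425). STAT2 (-1.36), IRF7 (-1.88) and STAT3 (-0.48) also fell, with adjusted p-values of 0.0985, 0.0425 and 0.302 (limma). IRF1, IRF2 and IRF3 did not pass, at -0.02, -0.21 and 0.19. Of 8 sensors and adaptors tested 4 fell, all of them sensors of double-stranded RNA. These were DDX58 (-2.09), IFIH1 (-1.996), TLR3 (-2.28) and DHX58 (-1.33), with adjusted p-values of 0.0387, 0.0425, 0.0817 and 0.211 (limma). Among negative regulators ADAR, the RNA-editing enzyme, fell (-1.03, limma, adjusted p = 0.167) and SOCS3 rose (0.70, adjusted p = 0.176).

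**Figure D2:**
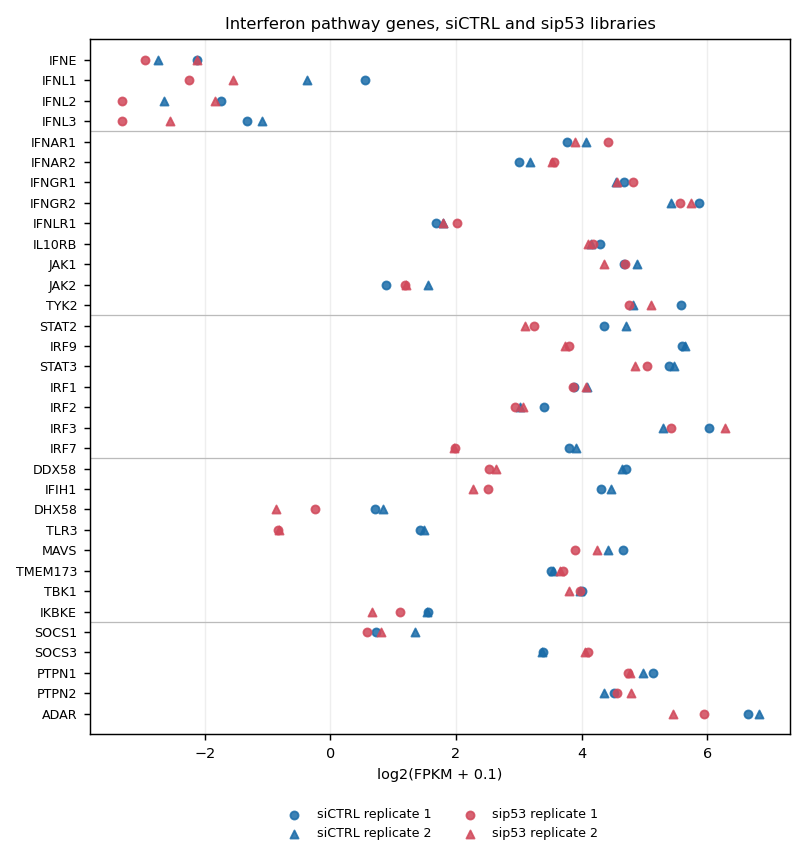
Level of the interferon pathway genes in each of the 4 siRNA libraries, on a log2(FPKM + 0.1) axis, in the order ligands, receptors and kinases, signal transducers, nucleic acid sensors and adaptors, and negative regulators, separated by grey lines (blue, siCTRL; red, sip53; circles, replicate 1; triangles, replicate 2). Both sip53 values lie to the left of both siCTRL values for IFNL1, IFNL3, STAT2, IRF9, STAT3, IRF7, DDX58 and IFIH1. The same holds for DHX58, TLR3, MAVS, TBK1, IKBKE, PTPN1 and ADAR, and for 24.7% of all listed genes. Both sip53 values lie to the right for IFNAR2, TMEM173, SOCS3 and PTPN2, and 0 of the 9 receptors and kinases fell.

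In the ZMAT3 experiment the shares of members that differed between genotypes were near those of all genes. All 32 listed were tested with limma on log2 CPM, with p-values adjusted over the 13029 genes of the table. A gene was called at an adjusted p under 0.05 and a change of at least 1.5-fold. By this rule 2 members were higher in ZMAT3-KO cells and 1 was lower, against 4.6% and 4.37% of all genes. The other 29 differed by less than 1.5-fold. At the adjusted p alone 10 were higher and 9 lower, against 28.7% and 30.1% of all genes. The median log2 fold change was 0.03 over the members and -0.01 over all genes, and the range over the members was -0.67 to 1.01. The summed level of the members was 1272 to 1295 CPM in the ZMAT3-WT libraries and 1339 to 1352 CPM in the ZMAT3-KO libraries.

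SAMD9 was the member that was lower. It was at 4.58, 4.66 and 4.68 log2 CPM in ZMAT3-WT cells and at 3.89, 4.05 and 3.97 in ZMAT3-KO cells (log2 fold change -0.67, SE 0.051, adjusted p = 2.62e-07). IFIT2 was higher, at -0.43, 0.38 and 0.10 log2 CPM in ZMAT3-WT cells and at 1.04, 1.13 and 0.91 in ZMAT3-KO cells (log2 fold change 1.01, SE 0.195, adjusted p = 0.000715). IFIT2 was thus near 1 CPM in the wild type, and its 3 ZMAT3-WT libraries had the widest spread of any member (SD 0.408). ISG20 was at 0.96, 0.64 and 0.76 log2 CPM against 1.76, 1.22 and 1.49 (log2 fold change 0.71, SE 0.15, adjusted p = 0.00142). The groups of ISG20 did not overlap, but its call was lost without ZMAT3-KO replicate 1, which left 1 member called higher. With a pseudocount of 1 CPM 0 members were called higher.

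Members of a family or cluster did not all go the same way in ZMAT3-KO cells, although differences between genes were not tested. IFIT1, IFIT3 and IFIT5, which lie in 1 cluster with IFIT2, had log2 fold changes of -0.01, 0.13 and 0.09 and adjusted p-values of 0.944, 0.438 and 0.0812. In the ISG15 system the ligases HERC5 (-0.39) and HERC6 (-0.45) and the protease USP18 (-0.28) were lower at the adjusted p alone, while UBE2L6 (0.38) was higher. ISG15 itself was at 0.13 with overlapping groups and an adjusted p of 0.049, which passed 0.05 neither with no variance trend nor without ZMAT3-WT replicate 2 or 3 or ZMAT3-KO replicate 1 or 3, and reached 0.192. Of the head-to-head pair, PARP9 was lower, at -0.31 (adjusted p = 0.000324). DTX3L was at 0.12 (adjusted p = 0.0415), a call lost with no variance trend and without any single library other than ZMAT3-WT replicate 3 (adjusted p up to 0.125). IFITM3 was at -0.11, and its call was lost with no variance trend and without ZMAT3-WT replicate 3 or ZMAT3-KO replicate 2 (adjusted p up to 0.0731). PLSCR1 (-0.35), IFITM2 (-0.28) and LAP3 (-0.13) were lower, and OAS3 (0.24), IFI35 (0.29), DDX60L (0.36), HELZ2 (0.28) and LGALS3BP (0.27) were higher, all at the adjusted p alone. The lowering of KRT8, KRT18 and KRT19 given above was larger than any member's fall, and its part in these differences was not tested.

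**Figure D3:**
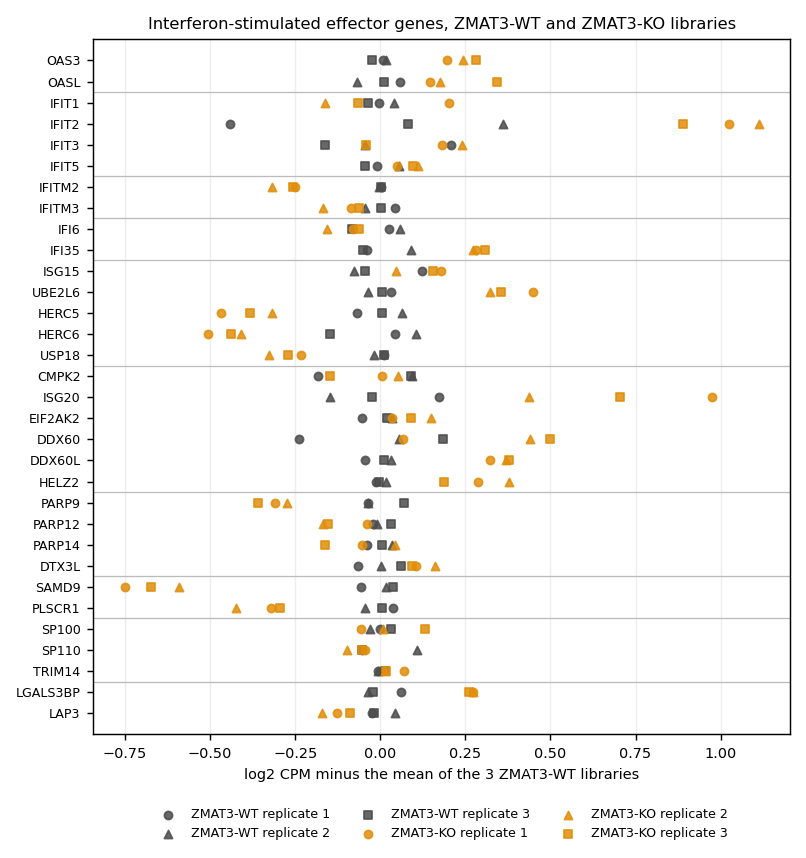
Level of the 32 listed members in each ZMAT3 library, as log2 CPM minus the mean of the 3 ZMAT3-WT libraries, grouped by role with grey lines between groups (grey, ZMAT3-WT; orange, ZMAT3-KO; circles, triangles and squares, replicates 1, 2 and 3). The 3 ZMAT3-KO points of IFIT2 lie to the right of its ZMAT3-WT points and those of SAMD9 furthest to the left of all, while the 3 ZMAT3-WT libraries of IFIT2 are themselves spread.

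Pathway genes in the ZMAT3 experiment included 28 of the 40 on the list, of which 1 was called higher and 0 lower. The gene called was SOCS1, a feedback inhibitor of JAK kinases, at 1.11, 1.10 and 0.99 log2 CPM against 2.09, 1.91 and 1.95 (log2 fold change 0.92, SE 0.102, adjusted p = 8.0e-06). At the adjusted p alone 7 of the 28 were higher and 8 lower, shares near the 28.7% and 30.1% of all genes. IRF9 was at 0.37 with overlapping groups (adjusted p = 0.0487), and STAT2 was at -0.01.

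The members' values in both experiments can be set side by side, though the tables were normalised separately and no test was run between them. Of the 29 members that were tested in both and fell with sip53, 15 had a log2 fold change above 0 and 14 below 0 in ZMAT3-KO cells. SAMD9 was the 1 member called lower in both experiments, by rules that differ, since only the ZMAT3 rule has a fold threshold. At the adjusted p alone HERC5, HERC6, USP18, PARP9, PLSCR1, IFITM3 and LAP3 were also lower in ZMAT3-KO cells. All of these fell with sip53. For 30 of the 32 the log2 fold change was smaller in size in ZMAT3-KO cells than with sip53. None of these comparisons of calls, signs and sizes was made over all genes, so they are not shown to be particular to the members. The spread differed too, with a standard error for OAS3 of 0.168 with sip53 and 0.033 in the ZMAT3 experiment. ZMAT3 itself fell with sip53, with a log2 fold change of -2.31, and was lower by -2.89 in ZMAT3-KO cells. OAS3 had log2 fold changes of -3.35 with sip53 and 0.24 in ZMAT3-KO cells, and IFI6 had -3.74 and -0.10. ISG20 and DDX60L, which did not pass with sip53, were at 0.71 and 0.36 in ZMAT3-KO cells.

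**Figure D4:**
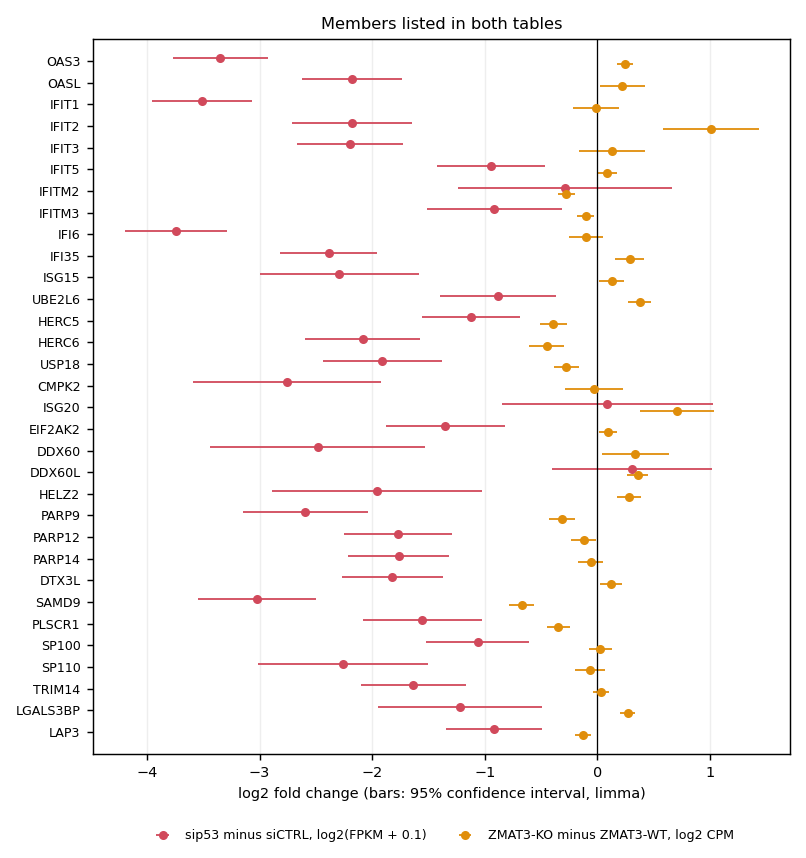
Log2 fold change of the 32 members listed in both tables, with 95% confidence intervals from limma (red, sip53 minus siCTRL on log2(FPKM + 0.1), 2 against 2 libraries; orange, ZMAT3-KO minus ZMAT3-WT on log2 CPM, 3 against 3). Red intervals lie below 0 for all but IFITM2, ISG20 and DDX60L, and orange points lie between -0.67 and 1.01.

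The rank of the members was also set across the experiments. For this, the level per transcript length of each gene was ranked among the 11344 genes found in both tables, library by library. The median percentile of the 32 members was 69.9 and 67.4 in the siCTRL libraries and 33.6 and 34.9 in the sip53 libraries. In the ZMAT3-WT libraries it was 36.2, 36.8 and 37.3, and in the ZMAT3-KO libraries 34.6, 33.6 and 33.6. By this rank the median member stood higher in both siCTRL libraries than in any of the other 8.

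Single members differed in how they followed this pattern. IFIT1 stood at percentiles of 90.5 and 90.3 with siCTRL, 36.4 and 34.7 with sip53, and 12.8 to 13.2 in the ZMAT3-WT libraries. IFI6 stood at 97.8 and 98.1, 70.5 and 71.8, and 48.9 to 51.2 respectively. ISG15 was high everywhere, at 97.7 and 98.5 with siCTRL, 92.0 and 89.0 with sip53, and 93.5 to 94.3 in the ZMAT3-WT libraries. SAMD9 was lower with sip53 (8.81 and 8.41) than in ZMAT3-WT cells (29.08 to 29.95). OAS1, IFI27, IFITM1 and BST2, among the more abundant members in siCTRL cells, were among the 17 not listed in the ZMAT3 table. siRNA transfection, cell clone, library kit and the authors' processing differ together between the experiments and cannot be told apart.

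**Figure D5:**
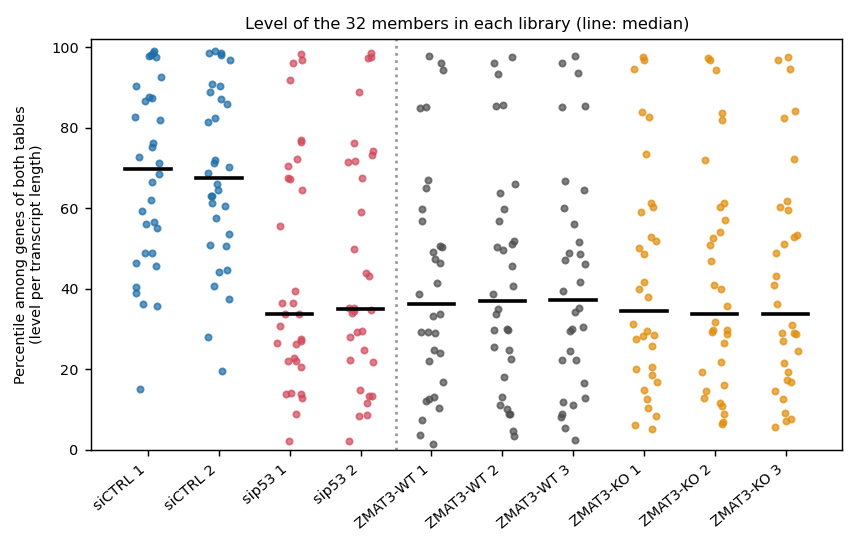
Percentile of each of the 32 members (points) among the 11344 genes of both tables, by level per transcript length, in each of the 10 libraries, with the median as a black line and a dotted line between the experiments. The medians are 69.9 and 67.4 in the siCTRL libraries and between 33.6 and 37.3 in the other 8.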

How the data were processed

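The authors deposited log2 CPM values per gene for the ZMAT3 experiment (poly(A) RNA, stranded libraries, STAR alignment to hg38, RSEM) and a table read here as FPKM for the siRNA experiment, for which the unit and the use of strand are not given in the sources used here. The submitters' processing notes name CASAVA 1.8.2, TopHat2 2.0.8 and FastQC 0.11.2 without a role, and hg19 and hg38 without a table. Linear CPM values sum to 999929 to 999931 in each ZMAT3 library. The authors' own fold changes and p-values were not used.

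Libraries were grouped by their labels. Each table was fitted separately over all its genes with limma 3.58.1 in R 4.3.3 (variance trend, two-sided, Benjamini-Hochberg adjustment, no block), on the deposited log2 values, or on log2(FPKM + 0.1) where a gene's mean reached 0.5 FPKM. The call thresholds follow the study's methods. Designs of 3 against 3 or 2 against 2 cannot pass an exact permutation test. The fit was run on simulated data with independent noise in each library, a setting that lacks the joint deviations of the siRNA libraries given below. Alternatives were another pseudocount, filter, threshold, centring or variance model, the replicate number as a block, and leaving out each library. Percentile ranks, the count of non-overlapping members over every listed gene, counts and medians with 0.5 FPKM in both groups, and a crossed block were chosen after seeing the data. Promoters came from RefSeq, and positions, canonical transcript lengths and shared 50-base words from GENCODE 44, handled with Python 3.11.15, pandas 2.3.3 and numpy 2.4.6. Figures were drawn with matplotlib 3.10.9. Values per library are given for called members with large changes and their neighbours, and genes that are no members come from written pathway and marker lists. Members and lists were chosen with earlier results of these data known. Protein identity within families was not analysed here. Some genes, among them the target of the siRNA pool, are not reported here.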

Additional observations from a re-analysis of the deposited data

How the results depend on the processing

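With sip53, the count of 39 lower members was 33 to 44 under the other planned settings, apart from the adjusted threshold, which left 17, and 38 with the replicate number as a block. Without any single library it was 38 to 39, and the count of higher members 0 to 1 (1 without sip53 replicate 2). The median log2 fold change was -1.69 with a pseudocount of 1 FPKM, -1.93 with no filter, -1.87 at a mean of at least 5 FPKM, and -2.17 to -1.97 without single libraries. The adjusted count was 10 after centring and 6 with no variance trend. It was 19 with a pseudocount of 1 FPKM, 18 at a mean of at least 5 FPKM and 22 with the replicate block. Over all genes the main fit gave 836 higher and 1325 lower, centring 1120 and 1048, the block 434 and 650, the adjusted threshold 5 and 34, and leaving out 1 library 482 to 720 and 635 to 1171. Signs turned for IFITM2 (-0.70 to 0.12 without single libraries), ISG20 (-0.40 to 0.57) and DDX60L (-0.047 to 0.67). Same-numbered libraries deviated in opposite directions (correlation -0.62), so the numbers were not taken as pairs. Libraries of unlike number deviated together (0.62), which in groups of 2 is the same value with its sign turned. A crossed block, added after the data had been seen, gave 41 lower members and 2410 higher and 3128 lower genes. IFITM2 passed with it, and at an adjusted p under 0.05 it gave 40 lower members and 2089 lower genes. Because the block was picked from these same values, its counts are no support for the main ones.

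In ZMAT3-KO cells 0 members were higher with a pseudocount of 1 CPM (397 higher and 388 lower genes), against 10 higher and 9 lower with no fold threshold (3734 and 3925 genes) and 1 and 0 at 2-fold (200 and 196, against 599 and 569). Without single libraries 1 to 2 were higher and 1 lower, and the median was 0.023 to 0.052. Signs turned for CMPK2 (-0.12 to 0.029 without single libraries), IFIT1 (-0.11 to 0.068) and SP100 (-0.025 to 0.070), none of them called. Same-numbered libraries did not deviate together (correlations -0.04, -0.02 and -0.09, and not every library correlated best with its own number), and the replicate block left 2 higher and 1 lower. The cause of these differences was not tested. Depth is unknown, and with 2 or 3 cultures of single clones or transfections the p-values cover only the spread between cultures.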
